A study of Mus musculus with 12 samples.

Results

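The 10 genes described here encode contractile proteins that are commonly used as markers of smooth muscle and other muscle: the actins Acta1, Acta2, Actg2 and Actc1, the actin-binding proteins Tagln, Cnn1 and Cnn2, the myosin regulatory light chain Myl9, and the tropomyosins Tpm1 and Tpm2. They were chosen by name, and each symbol was matched to its mouse Ensembl gene identifier on GRCm38. All 10 were found among the 28948 genes listed, and 8 of the 10 reached the expression level required for testing. Expression was measured by RNA sequencing of total RNA from cultured 3T3-L1 adipocytes, a mouse cell line of Swiss origin that becomes fat cells when treated with dexamethasone, isobutyl methylxanthine, insulin and troglitazone. The 12 libraries formed 4 groups of 3: cells with an empty vector, cells overexpressing Foxp1, cells with a scrambled hairpin, and cells with a hairpin against Foxp1. Foxp1 is a forkhead transcription factor. The empty vector is the control of the overexpression and the scrambled hairpin that of the knockdown, so these comparisons share no library. The sources used here do not say what distinguishes replicates, on which day cells were harvested, or how constructs were delivered, so p-values measure the spread between these samples, which may be technical.

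In a contractile cell, actin polymers form the thin filaments, tropomyosins lie along them, transgelin and calponins bind and stabilise them, and myosin with its regulatory light chain pulls on them. Most of these genes are classic targets of serum response factor (Srf), a transcription factor that binds a DNA element called the CArG box together with myocardin-related cofactors, which are held in the cytoplasm by monomeric actin. Acta2 and Tagln are also markers of myofibroblasts, and fibroblast-like precursors lose actin stress fibres as they round up into fat cells.

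The promoters of the family were searched for the CArG box, the element by which the group is known. RefSeq promoter windows (GRCm38.p6, 250 bases before to 50 bases after the annotated start) were found for 8 of the 10 genes, and not for Tagln and Actg2. A CArG box, searched on both strands, was present in 4 of these 8 windows, against 1.63% of 32851 windows of the same length. In the sequences below, written 5′ to 3′ on the strand of the gene with 10 bases on each side, capitals mark the box. The Acta1 box begins 73 bases before the start, at chr8:123894829-123894858 with its flanks. That of Actc1 begins 47 bases before the start (chr2:114052903-114052932), that of Cnn2 56 bases (chr10:79988534-79988563) and that of Myl9 161 bases (chr2:156775293-156775322).
Acta1: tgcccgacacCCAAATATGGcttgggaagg
Actc1: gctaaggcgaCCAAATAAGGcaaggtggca
Cnn2: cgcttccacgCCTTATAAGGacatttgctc
Myl9: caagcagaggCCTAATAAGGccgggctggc

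Acta2 held no box of this form in its window but 2 elements that depart from it by a single G or C in the core. The first begins 84 bases before the start (chr19:34255438-34255467) and the second 34 bases before it (chr19:34255388-34255417), and capitals again mark the element.
Acta2, first: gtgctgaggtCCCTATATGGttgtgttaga
Acta2, second: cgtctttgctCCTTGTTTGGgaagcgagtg

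With such elements counted, 5 of the 8 windows held a match, against 9.98% of all windows. None was found in the windows of Cnn1, Tpm1 and Tpm2. The forkhead core GTAAACA, searched on both strands, was found in 0 of the 8 windows and in 3.65% of all windows. A match describes letters in these windows and is not evidence of binding.

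The libraries held between 35196338 and 38389466 reads assigned to genes. Expression is given as RPKM, reads scaled to the length of the exons and to the assigned reads of the library. For 1000 bases of exon, a single read amounted to between 0.0260 and 0.0284 RPKM. The targeted gene followed the labels. In the vector arm Foxp1 stood at 1.80 ± 0.03 RPKM (SD, n = 3) in controls and 6.56 ± 0.71 with overexpression, and in the hairpin arm at 2.18 ± 0.06 with the scrambled hairpin and 1.11 ± 0.03 with the Foxp1 hairpin. Replicates of a group differed by more than read sampling in every pair, by squared differences 2.74 to 31.8 times those of sampling. The pairs with overexpression replicate 3 gave 30.4 and 31.8, and that library had 13.1% mitochondrial reads against 9.99% and 9.65% in the other two of its group. Adipocyte markers were abundant: Adipoq, which encodes adiponectin, averaged from 437.5 RPKM with overexpression to 1948 RPKM with the empty vector. Of the genes listed as smooth muscle contractile partners, Des lay between 7.66 and 11.7 RPKM and Csrp1 between 30.4 and 56.3 RPKM in the 12 libraries. Some other markers of mature smooth muscle were low. The smooth muscle myosin Myh11 lay between 1.46 and 3.52 RPKM in the 12 libraries, the smooth muscle cofactor Myocd at or below 0.0371 RPKM, and Cnn1, a late marker of smooth muscle, at or below 0.0871 RPKM.

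The order of the genes by level differed between the arms of the study. With the empty vector, Acta2 was highest at 33.3 ± 2.7 RPKM (SD, n = 3), followed by Cnn2 at 25.6 ± 2.0, Acta1 at 13.0 ± 0.6 and Tpm1 at 12.3 ± 0.6. Below these came Myl9 at 4.85 ± 0.60, Tpm2 at 4.59 ± 0.43, Tagln at 3.68 ± 0.22 and Actg2 at 1.52 ± 0.20. Of these neighbours, Acta1 and Tpm1 did not differ beyond their spread, nor did Myl9 and Tpm2. With the scrambled hairpin the tropomyosins led, Tpm2 at 13.4 ± 0.3 RPKM and Tpm1 at 10.2 ± 0.5, ahead of Cnn2 at 7.55 ± 0.82, Acta2 at 2.15 ± 0.02 and Acta1 at 1.05 ± 0.05. Myl9 at 0.332 ± 0.151, Tagln at 0.255 ± 0.016 and Actg2 at 0.180 ± 0.055 followed there, and the ranges of Myl9 and Tagln overlapped. Overexpression put Acta1 first at 39.7 ± 3.1 RPKM, with Acta2 at 36.5 ± 4.4 within its spread. With the Foxp1 hairpin, Tpm1 at 12.3 ± 1.0, Cnn2 at 10.6 ± 2.4, Tpm2 at 10.6 ± 0.6 and Acta2 at 9.48 ± 4.62 followed one another with no neighbours separated beyond their spread, while Tpm1 and Tpm2 did not overlap.

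**Figure D1:**
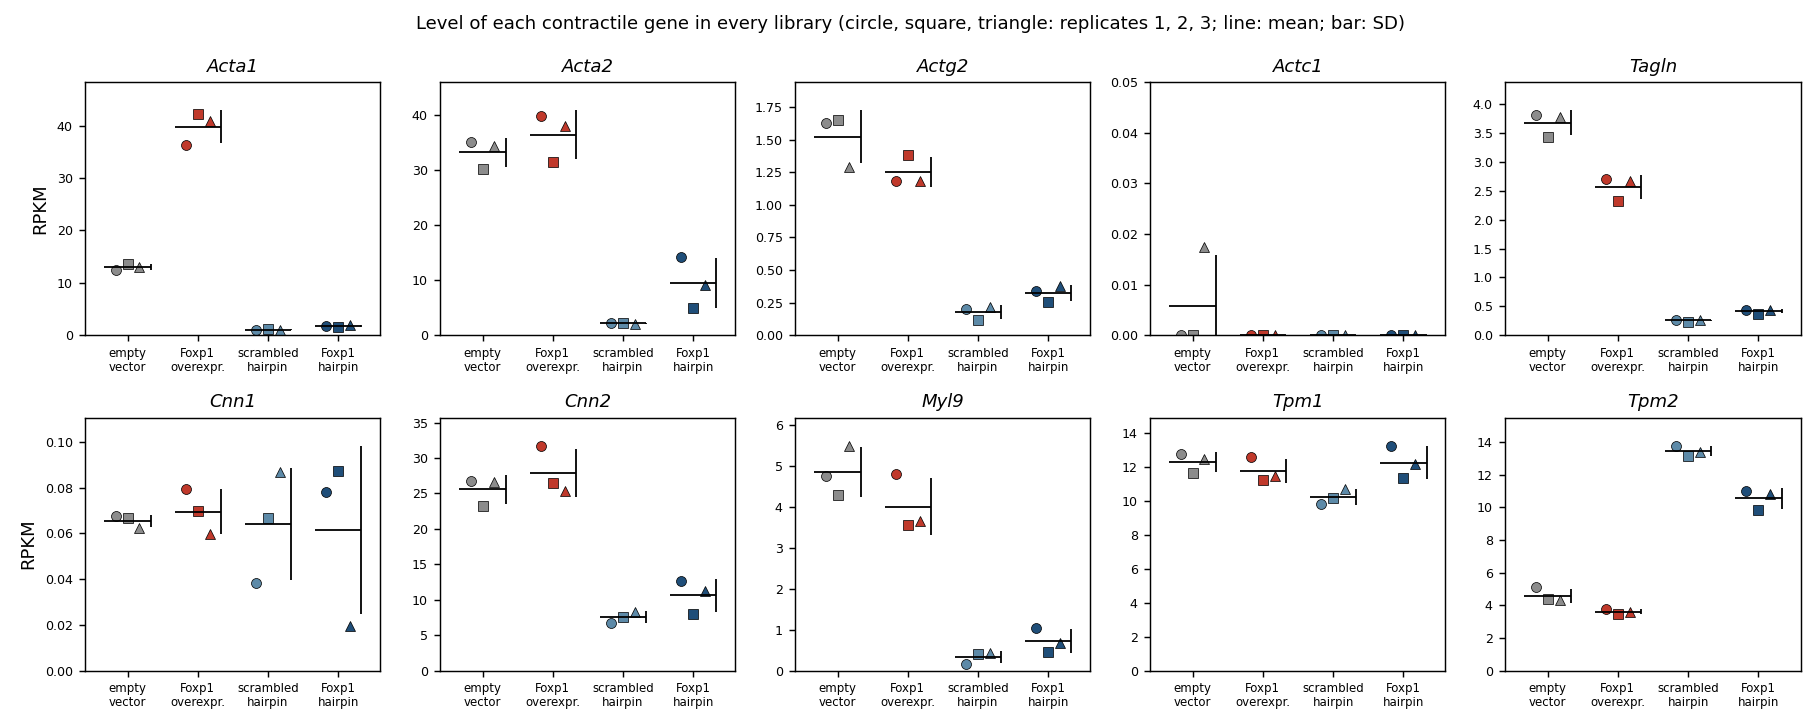
Level of each of the 10 genes in RPKM (vertical axes, each from 0) in the 4 groups, with circles, squares and triangles for replicates 1, 2 and 3, a line at the mean and a bar of 1 SD. Acta1 stands apart with overexpression (36.2 to 42.2 RPKM), Acta2 spreads from 5.04 to 14.3 RPKM with the Foxp1 hairpin, and Tpm2 is the gene that is higher in both hairpin groups than in both vector groups.

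Overexpression of Foxp1 raised Acta1, the actin of skeletal muscle, and left most of the other contractile genes without a detected change. Acta1 (ENSMUSG00000031972; chr8:123891769-123894751, minus strand) was measured at 12.5, 13.7 and 13.0 RPKM in the empty vector libraries and at 36.2, 42.2 and 40.8 RPKM in the overexpression libraries. The lowest overexpression library was thus far above the highest control. The ratio of means was 3.05, and the difference of mean log2(RPKM + 1), called the log2 difference from here on, was 1.54 (SE 0.06, 95% interval 1.40 to 1.67, adjusted p = 1.31e-09). Of the 8 genes tested, 1 rose, 2 fell and 5 did not pass the test at an adjusted p of 0.05. Over all 11245 genes tested, 51.4% passed, 31.0% upward and 20.3% downward, beside 3 of 8 here. Their median log2 difference was -0.11, against 0.04 over all genes tested.

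Acta2, the actin of vascular smooth muscle (chr19:34241090-34255590, minus strand), was measured at 35.2, 30.2 and 34.4 RPKM with the empty vector and 39.9, 31.5 and 38.0 RPKM with overexpression. These groups overlapped. The log2 difference was 0.13 with an interval from -0.39 to 0.64 (adjusted p = 0.685), which does not contain the difference found for Acta1. This interval uses the spread within all 4 groups, including the uneven knockdown libraries. With only the 6 libraries compared, the adjusted p from limma was 0.311. The ratio of Acta1 to Acta2 in RPKM went from 0.354, 0.452 and 0.378 with the empty vector to 0.908, 1.34 and 1.07 with overexpression. In 2 of the 3 overexpression libraries the skeletal muscle actin was the more abundant per length. Actg2, the actin of visceral smooth muscle (chr6:83512905-83536265, minus strand), was at 1.63, 1.65 and 1.29 RPKM in the control and 1.18, 1.38 and 1.19 RPKM with overexpression. The groups overlapped, and the log2 difference of -0.16 missed the threshold (adjusted p = 0.0629). Without empty vector replicate 3, the lowest of its group, it was -0.23 (adjusted p = 0.0148), and without overexpression replicate 2, the highest of its group, -0.20 (adjusted p = 0.0433). Actc1, the actin of heart muscle (chr2:114047282-114053548, minus strand), was represented by 1 read in all 12 libraries together, in empty vector replicate 3. The 11 libraries with 0 reads allow at most 3 reads, or 0.0482 to 0.0505 RPKM, for counting error alone.

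Among the actin-binding proteins, Tagln fell. Transgelin (chr9:45929619-45936058, minus strand) was at 3.82, 3.43 and 3.78 RPKM with the empty vector and 2.71, 2.33 and 2.67 RPKM with overexpression. The groups were separate, the ratio was 0.699 and the log2 difference -0.39 (SE 0.05, adjusted p = 5.89e-05). Tagln overlaps the antisense gene Gm48529 (chr9:45930112-45933738, plus strand), which shares 55.4% of Tagln's 50-base exon windows, and the strand setting of the counting is not given in the sources used here, so reads of this stretch cannot be assigned with certainty. Gm48529 itself stood at 1.82 ± 0.07 RPKM in the controls and 2.02 ± 0.18 RPKM in the overexpression libraries, a log2 difference of 0.10 that did not pass the test (adjusted p = 0.252). Cnn2, a calponin that is also expressed outside muscle (chr10:79988584-79996062, plus strand), overlapped between groups, with 26.8, 23.3 and 26.7 RPKM in the control and 31.7, 26.5 and 25.4 RPKM with overexpression (log2 difference 0.12, adjusted p = 0.494). Cnn1, the calponin of differentiated smooth muscle (chr9:22099216-22109630, plus strand), was covered by 2 to 9 reads per library and 80 reads in all, and was not tested.

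The regulatory light chain Myl9 (chr2:156775420-156781658, plus strand) was at 4.76, 4.30 and 5.49 RPKM with the empty vector and 4.80, 3.56 and 3.65 RPKM with overexpression. The first overexpression library lay within the control range, and the log2 difference of -0.23 did not pass the test (adjusted p = 0.167). Of the tropomyosins, Tpm2 (chr4:43514711-43523765, minus strand) fell from 5.09, 4.36 and 4.32 RPKM to 3.77, 3.47 and 3.61 RPKM. Every overexpression library was below every control, the ratio was 0.788 and the log2 difference -0.27 (SE 0.06, adjusted p = 0.00152). Tpm1 (chr9:67022590-67049406, minus strand) was at 12.8, 11.7 and 12.5 RPKM in the control and 12.6, 11.3 and 11.5 RPKM with overexpression, and overlapped (log2 difference -0.06, interval -0.19 to 0.07, adjusted p = 0.422). Groups were thus separate for Acta1, Tagln and Tpm2, 3 of the 8 genes tested, where 57.5% of all genes tested had groups that did not overlap (34.4% upward and 23.1% downward).

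**Figure D2:**
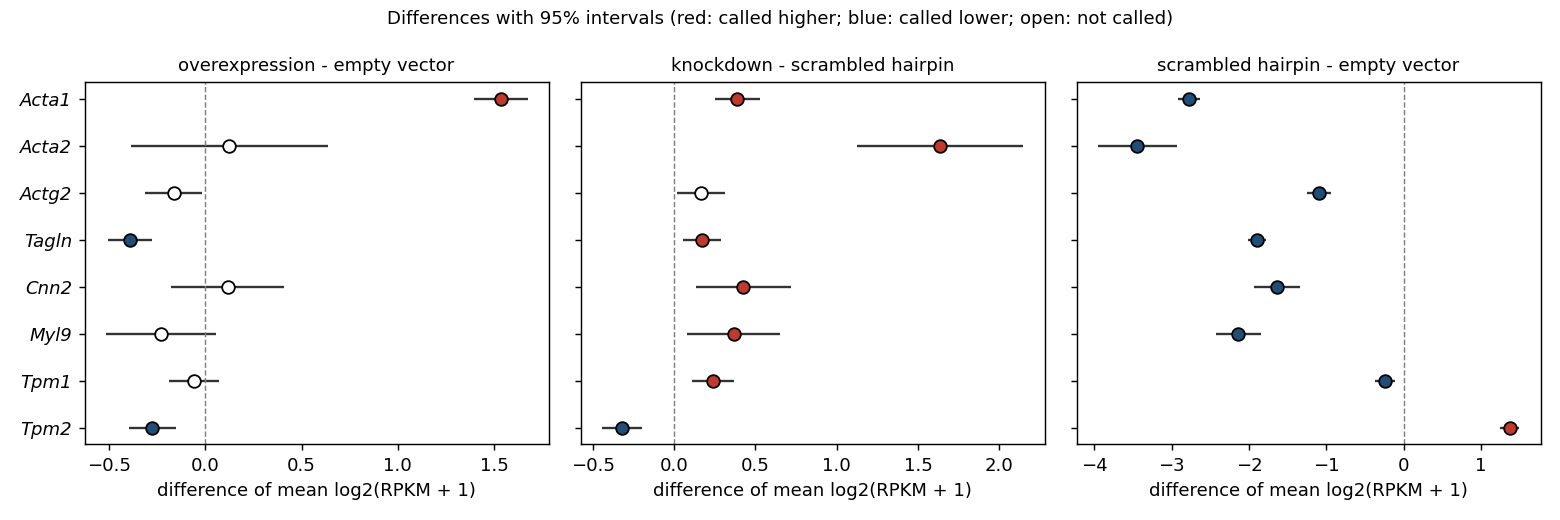
Difference of mean log2(RPKM + 1) for the 8 genes tested, in 3 comparisons, with 95% intervals as bars; the horizontal scales differ between panels. Filled points passed the test at an adjusted p of 0.05, with red for higher and blue for lower: with overexpression these are Acta1, Tagln and Tpm2, and with the Foxp1 hairpin 7 of the 8.

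Knockdown of Foxp1 raised 6 of the 8 genes tested, most of all Acta2, and lowered Tpm2. In the whole set of tested genes 49.7% passed the test, 18.7% upward and 31.0% downward, while 6 of 8 contractile genes passed upward and 1 downward. Their median log2 difference was 0.30, against -0.04 over all genes tested. Without knockdown replicate 3, 3 passed upward and 1 downward. Acta2 was at 2.17, 2.14 and 2.13 RPKM with the scrambled hairpin and at 14.3, 5.04 and 9.15 RPKM with the Foxp1 hairpin, from 182, 180 and 177 reads against 1174, 418 and 756 reads. All knockdown libraries were above all controls, but they differed among themselves by up to 2.83 times. The ratio of means was 4.42 and the log2 difference 1.64 (SE 0.24, interval 1.12 to 2.15, adjusted p = 1.30e-04), and it ranged from 1.31 to 1.98 when any 1 of the 6 hairpin libraries was left out. Because libraries are bulk, more cells that express a gene and more RNA per expressing cell cannot be told apart.

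Acta1 was far lower in this arm, at 1.02, 1.11 and 1.03 RPKM in the control and 1.72, 1.48 and 1.87 RPKM in the knockdown. The groups were separate, with a ratio of 1.60 and a log2 difference of 0.39 (SE 0.06, adjusted p = 3.42e-04). The ratio of Acta1 to Acta2 fell from 0.471, 0.516 and 0.485 in the scrambled libraries to 0.121, 0.294 and 0.204 in the knockdown libraries. This is the opposite of its course under overexpression, and the ranges of this ratio overlapped in neither comparison. Actg2 was supported by 12, 7 and 13 reads in the control libraries and 20, 15 and 22 in the knockdown libraries, or 0.202, 0.118 and 0.220 RPKM against 0.343, 0.255 and 0.376 RPKM. These values did not overlap, and the log2 difference of 0.17 missed the threshold (adjusted p = 0.0607). On this scale low genes are compressed by the added 1 RPKM: with 0.1 RPKM added instead, the difference was 0.61 (adjusted p = 0.0113).

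Tagln rose in the knockdown from 0.264, 0.237 and 0.266 RPKM to 0.429, 0.373 and 0.441 RPKM. The groups were separate, the ratio was 1.62 and the log2 difference 0.17 (SE 0.05, adjusted p = 0.0174). The reads behind it were few, 20, 18 and 20 in the controls and 32, 28 and 33 in the knockdown, and the antisense gene Gm48529 also rose here, from 1.43 ± 0.24 to 2.04 ± 0.07 RPKM (adjusted p = 0.00167). The part of this overlap in the Tagln result was not tested. The call was lost without scrambled replicate 2 (adjusted p = 0.0529), without knockdown replicate 3 (adjusted p = 0.0561) and with quantile normalization (log2 difference 0.09, adjusted p = 0.202). Cnn2 was at 6.70, 7.61 and 8.34 RPKM in the controls and 12.6, 8.01 and 11.3 RPKM in the knockdown, so that knockdown replicate 2 fell within the control range. Its log2 difference was 0.43 (SE 0.13, adjusted p = 0.0190), and the adjusted p rose to 0.0779 without scrambled replicate 1, 0.0870 without knockdown replicate 1 and 0.0691 without knockdown replicate 3. Cnn1 stayed near its limit, with 20 reads in the 3 controls and 19 in the 3 knockdown libraries.

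Myl9 was at 0.158, 0.405 and 0.432 RPKM with the scrambled hairpin, from 7, 18 and 19 reads, and at 1.03, 0.456 and 0.686 RPKM with the Foxp1 hairpin, from 45, 20 and 30 reads. The groups were separate by a narrow margin. The ratio was 2.19 and the log2 difference 0.37 (SE 0.13, adjusted p = 0.0360), which missed the threshold without scrambled replicate 1 (adjusted p = 0.144), without knockdown replicate 1 (0.154) or without knockdown replicate 3 (0.0714). The tropomyosins moved apart. Tpm1 rose from 9.84, 10.2 and 10.7 RPKM to 13.3, 11.3 and 12.2 RPKM (log2 difference 0.24, SE 0.06, adjusted p = 0.00544), and Tpm2 fell from 13.8, 13.1 and 13.4 RPKM to 11.0, 9.83 and 10.8 RPKM (log2 difference -0.32, SE 0.06, adjusted p = 5.62e-04). Neither pair of groups overlapped. In all, groups were separate for 7 of the 8 genes tested, every one but Cnn2, against 59.6% of all genes tested (23.1% upward and 36.5% downward).

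The difference between the responses was tested as the log2 difference of overexpression minus that of knockdown. A positive value marks a gene whose log2 difference was higher with overexpression than with knockdown, whether or not it rose. Over all genes 54.9% passed this test, 34.6% in the positive and 20.3% in the negative direction. Of the 8 contractile genes, Acta1 passed in the positive direction with 1.15 (adjusted p = 4.57e-07) and 5 passed in the negative direction. These were Acta2 with -1.51 (adjusted p = 0.00217), Myl9 with -0.60 (adjusted p = 0.0170), Tagln with -0.56 (adjusted p = 4.86e-05), Actg2 with -0.33 (adjusted p = 0.0118) and Tpm1 with -0.30 (adjusted p = 0.00959). Acta1 and Acta2 thus lay on opposite sides. The sizes for low genes depend on the scale: with 0.1 RPKM added in place of 1 they were -1.22 for Myl9, -1.03 for Tagln and -0.87 for Actg2, and with voom on recovered reads -1.43, -1.20 and -1.13. Cnn2 at -0.31 (adjusted p = 0.186) and Tpm2 at 0.05 (interval -0.13 to 0.22, adjusted p = 0.631) did not pass, and without knockdown replicate 2 Cnn2 passed at -0.48 (adjusted p = 0.0130). By the calls of their own comparisons, Tagln was the gene among the 8 that passed in opposite directions, down with overexpression and up with knockdown. Its knockdown call rested on few reads and was lost in 3 of the recomputed settings, and the overlap with Gm48529 applies here too. Acta1 rose and Tpm2 fell in both comparisons.

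The cytoplasmic actins put these changes in scale. Actb and Actg1, which build the filaments of nearly every cell, averaged 435.9 to 506.3 RPKM and 172.1 to 206.6 RPKM in the 4 groups. Actb rose in the knockdown (log2 difference 0.19, adjusted p = 0.0111) and did not pass with overexpression (0.04, adjusted p = 0.562), and Actg1 rose with overexpression (0.26, adjusted p = 0.0130) and did not pass in the knockdown (0.05, adjusted p = 0.610). Actg1 shares 37.4% of its 50-base windows with other genes, mostly pseudogenes, so its level is uncertain, while Acta1 shares 2.02% and Acta2 0.326% and neither shares any window of 100 bases. Of the summed RPKM of the 6 actin genes, the muscle actins made up 6.84%, 6.58% and 6.70% with the empty vector and 9.49%, 9.74% and 10.2% with overexpression. They made up 0.563%, 0.528% and 0.514% with the scrambled hairpin and 2.11%, 1.05% and 1.61% with the Foxp1 hairpin. The share was higher than in the matching control in every library of both manipulated groups, with most of the added RPKM from Acta1 under overexpression and from Acta2 under knockdown.

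**Figure D3:**
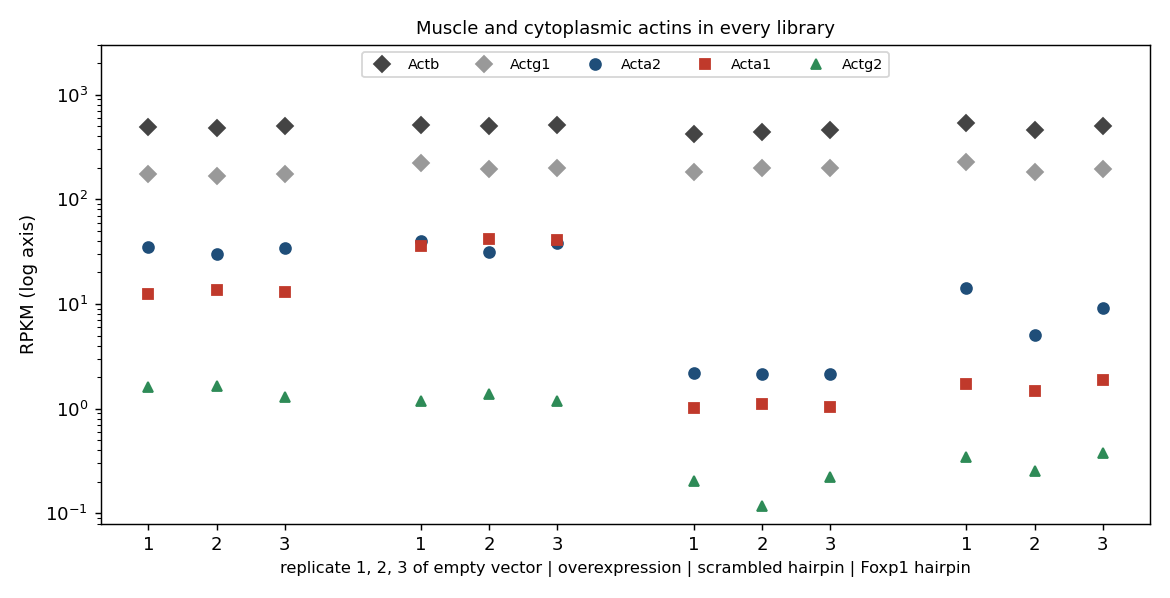
RPKM on a log axis of the cytoplasmic actins Actb and Actg1 and the muscle actins Acta2, Acta1 and Actg2 in each of the 12 libraries, in the order empty vector, overexpression, scrambled hairpin, Foxp1 hairpin. Acta1 comes close to Acta2 or passes it in the overexpression libraries (ratios 0.908 to 1.34), and both lie near 1 to 2 RPKM in the scrambled libraries while Actb lies between 417.0 and 454.7 RPKM there, below its 480.6 to 502.4 RPKM with the empty vector.

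The largest differences for these genes lay between the 2 control groups. Acta2 was 15.5 times higher with the empty vector than with the scrambled hairpin (log2 difference, scrambled minus empty vector, -3.44, adjusted p = 5.83e-08), Acta1 12.4 times (-2.77, adjusted p = 8.08e-12) and Cnn2 3.39 times (-1.64, adjusted p = 2.86e-07). The ratio of means was 14.6 for Myl9, 14.4 for Tagln and 8.47 for Actg2. These 3 genes reached 1 RPKM in 3 libraries only through the groups with a vector, and so had to differ if they were to be tested at all. Tpm1 was 1.20 times higher with the empty vector (-0.24, adjusted p = 0.00258), and Tpm2 was 2.93 times higher with the scrambled hairpin (1.37, adjusted p = 7.31e-10). Of the 8 genes tested, 7 were lower with the scrambled hairpin and 1 was higher, and all 8 had separate groups, where 71.8% of all genes tested passed (27.0% downward) and 78.9% had separate groups (48.9% upward and 30.1% downward). The construct and any difference in how or when the arms were cultured cannot be told apart. The knockdown level of Acta2, 4.42 times its own control, was therefore still 9.48 ± 4.62 RPKM against 33.3 ± 2.7 RPKM in the other control.

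The knockdown libraries did not move evenly, and the spread had an order that several of the genes shared. Acta2 had a coefficient of variation of 48.7% in this group, the 22nd highest among 10588 genes with a mean of at least 1 RPKM, where the median was 4.92%. Replicate 1 exceeded replicate 2 by 2.83 times for Acta2, 2.27 times for Myl9 and 1.57 times for Cnn2. The ratio was 1.34 for Actg2, 1.17 for Tpm1, 1.16 for Acta1, 1.15 for Tagln and 1.12 for Tpm2, so it was above 1 for all 8, and its median over all tested genes was 0.995. Replicate 1 was the highest and replicate 2 the lowest for 5 of the 8 genes (62.5%), against 19.4% of all 11245 genes tested. This order was picked after the values were seen, and genes of a library are not independent of each other. Foxp1 itself did not follow it, with a ratio of 0.970 and 1.11, 1.14 and 1.07 RPKM in replicates 1 to 3. The same order was found for 7 of 11 tested cytoplasmic relatives of these genes, 8 of 16 tested cytoskeletal targets of Srf and its cofactors, 7 of 12 fibroblast and preadipocyte markers, and 0 of 13 adipocyte markers. It was found for 2 of 12 smooth muscle contractile partners, 1 of 10 genes listed with Srf, 2 of 12 genes of transforming growth factor beta signalling, 0 of 3 sarcomere genes, 0 of 2 pericyte markers and 0 of 2 macrophage markers. S100a4, a fibroblast-associated gene named here after its values were seen, had a ratio of 1.57. The order was not confined to the knockdown group. Acta2 held it with the empty vector (35.2, 30.2 and 34.4 RPKM) and with overexpression (39.9, 31.5 and 38.0 RPKM), as did Tpm1 and Tagln. Of the vector groups, Cnn2 held it with the empty vector only, Myl9 and Tpm2 with overexpression only, and Acta1 and Actg2 in neither. With the scrambled hairpin, Tpm2 alone of the 8 genes held it (13.8, 13.1 and 13.4 RPKM). The share of all genes tested with this order was computed for the knockdown group only, so its recurrence in other groups has no background here.

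**Figure D4:**
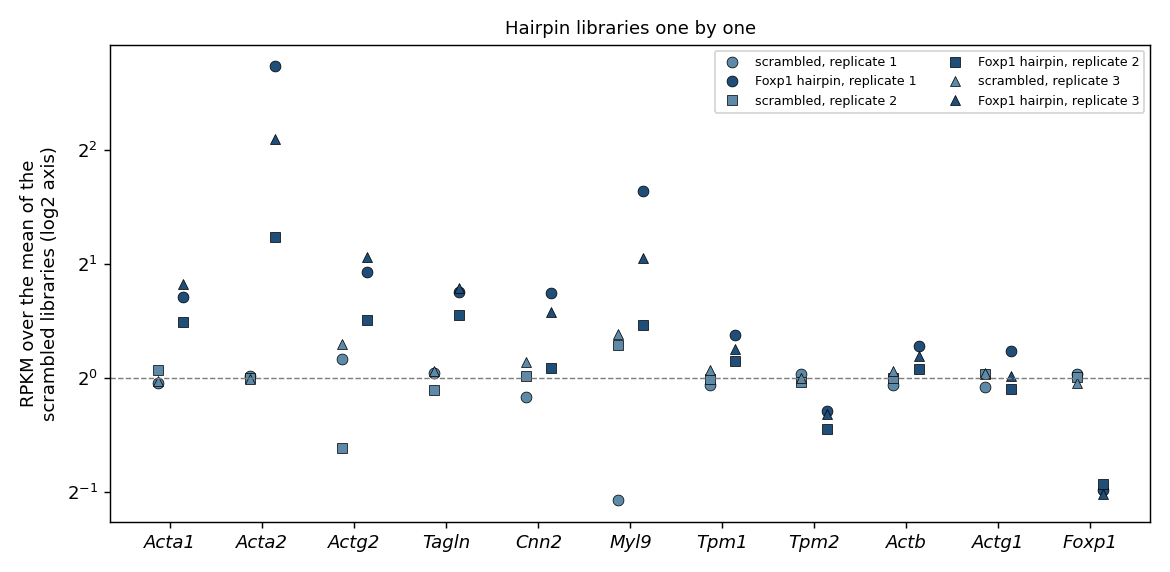
RPKM of each gene in the 6 hairpin libraries divided by the mean of the 3 scrambled libraries, on a log2 axis, with circles, squares and triangles for replicates 1, 2 and 3. The 3 Foxp1 hairpin libraries spread widely for Acta2 and Myl9, with replicate 1 highest and replicate 2 lowest, while their Foxp1 levels lie close together.

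Other genes of the contractile and Srf pathway were compared as lists, whose counts are to be read against the shares over all genes tested: 31.0% rose and 20.3% fell with overexpression, and 18.7% rose and 31.0% fell with knockdown. The medians over all genes were 0.04 and -0.04. Of 18 smooth muscle contractile partners, 12 were tested. With overexpression 3 rose and 6 fell (median log2 difference -0.09), and with knockdown 4 rose and 4 fell (median -0.08). Fhl1, a LIM protein of striated and smooth muscle, fell from 6.90 to 3.40 RPKM with overexpression (log2 difference -0.85, adjusted p = 1.52e-08), and the intermediate filament gene Synm fell from 1.76 to 1.10 RPKM (-0.39, adjusted p = 8.78e-06). Mylk, the kinase that phosphorylates the regulatory light chain, rose in the knockdown from 3.93 to 5.61 RPKM (0.42, adjusted p = 7.83e-06). Pdlim7, a PDZ and LIM scaffold of actin filaments, fell with overexpression (-0.32, adjusted p = 4.24e-05) and rose with knockdown (0.20, adjusted p = 0.00187). Myh11 did not pass in either comparison (-0.01, adjusted p = 0.886, and -0.04, adjusted p = 0.611), but stood at 3.25 RPKM with the empty vector against 1.65 RPKM with the scrambled hairpin.

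Srf did not change detectably with overexpression (13.7 to 13.9 RPKM, log2 difference 0.02, adjusted p = 0.790) or knockdown (16.3 to 16.5 RPKM, 0.02, adjusted p = 0.741). Its actin-sensing cofactors Mrtfa (-0.04, adjusted p = 0.453, and 0.01, adjusted p = 0.910) and Mrtfb (-0.09, adjusted p = 0.249, and -0.09, adjusted p = 0.250) did not pass in either comparison. Of the 11 genes listed as Srf and its partners, 10 were tested, and 2 rose and 2 fell with overexpression while 1 rose and 1 fell with knockdown (median log2 difference -0.02 in both), against 51.4% and 49.7% of all genes that passed in either direction. Wwtr1, a co-activator of the Hippo pathway, rose from 19.0 to 33.6 RPKM with overexpression (0.79, adjusted p = 7.35e-08), as did the ternary complex factor Elk3 (0.30, adjusted p = 0.00576). Elk4 (-0.17, adjusted p = 0.0154) and the Srf-binding Fhl2 (-0.24, adjusted p = 0.0395) fell. In the knockdown Fhl2 rose (0.28, adjusted p = 0.0218) and Yap1 fell (-0.19, adjusted p = 0.00245). Elk1 and Tead1 passed in neither, with log2 differences of -0.08 and 0.15 under overexpression and 0.04 and -0.13 under knockdown, and Myocd was too low to be tested.

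Of 20 cytoskeletal genes listed as targets of Srf and its cofactors, 16 were tested. In the knockdown 12 of these rose and 0 fell, with a median log2 difference of 0.27 against -0.04 over all genes, of which 18.7% rose. With overexpression 9 rose and 4 fell, with a median of 0.22 against 0.04 over all genes, of which 31.0% rose. No test of the list was made. Flna, which crosslinks actin filaments, rose with knockdown from 16.2 to 28.2 RPKM (0.76, adjusted p = 4.23e-07), and the focal adhesion protein Zyx from 58.1 to 81.8 RPKM (0.49, adjusted p = 6.18e-06). Both fell with overexpression, by 0.19 (adjusted p = 0.00701) and 0.30 (adjusted p = 1.82e-04) on the log2 scale. The integrin Itga5 (0.54, adjusted p = 6.99e-07) and the scaffold Pdlim5 (0.48, adjusted p = 1.10e-06) rose with overexpression and did not pass in the knockdown (0.10, adjusted p = 0.0728, and -0.07, adjusted p = 0.184). Of the cytoplasmic counterparts of the contractile genes, 11 of 13 were tested, and 5 rose and 1 fell with overexpression, while 4 rose and 0 fell with knockdown (median log2 differences 0.09 and 0.14), where 31.0% and 18.7% of all genes rose. Tagln2, the transgelin of non-muscle cells, rose with overexpression from 27.6 to 58.5 RPKM (1.05, adjusted p = 2.49e-07), the comparison in which Tagln fell. Tpm4 rose from 37.3 to 52.2 RPKM (0.47, adjusted p = 1.56e-06) and Tpm3 from 12.5 to 14.2 RPKM (0.17, adjusted p = 0.0165), where Tpm2 fell. Both rose in the knockdown too, where Tpm2 also fell, Tpm4 by 0.12 (adjusted p = 0.0363) and Tpm3 by 0.26 (adjusted p = 0.00141). The non-muscle myosin Myh10 fell with overexpression from 23.9 to 19.2 RPKM (-0.31, adjusted p = 0.00305).

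Transforming growth factor beta is a known inducer of Acta2 and Tagln in fibroblasts. All 12 genes listed for this pathway were tested. With overexpression 9 rose and 1 fell, and with knockdown 2 rose and 5 fell (median log2 differences 0.27 and -0.07). Over all genes 31.0% rose and 20.3% fell with overexpression, and the knockdown count was close to the 18.7% and 31.0% of all genes. With overexpression Ltbp2, which encodes a matrix protein that binds latent growth factor complexes, rose (0.89, adjusted p = 1.75e-07), as did the signal transducer Smad3 (0.40, adjusted p = 2.14e-05) and the ligand Tgfb1 (0.28, adjusted p = 4.22e-05).

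**Figure D5:**
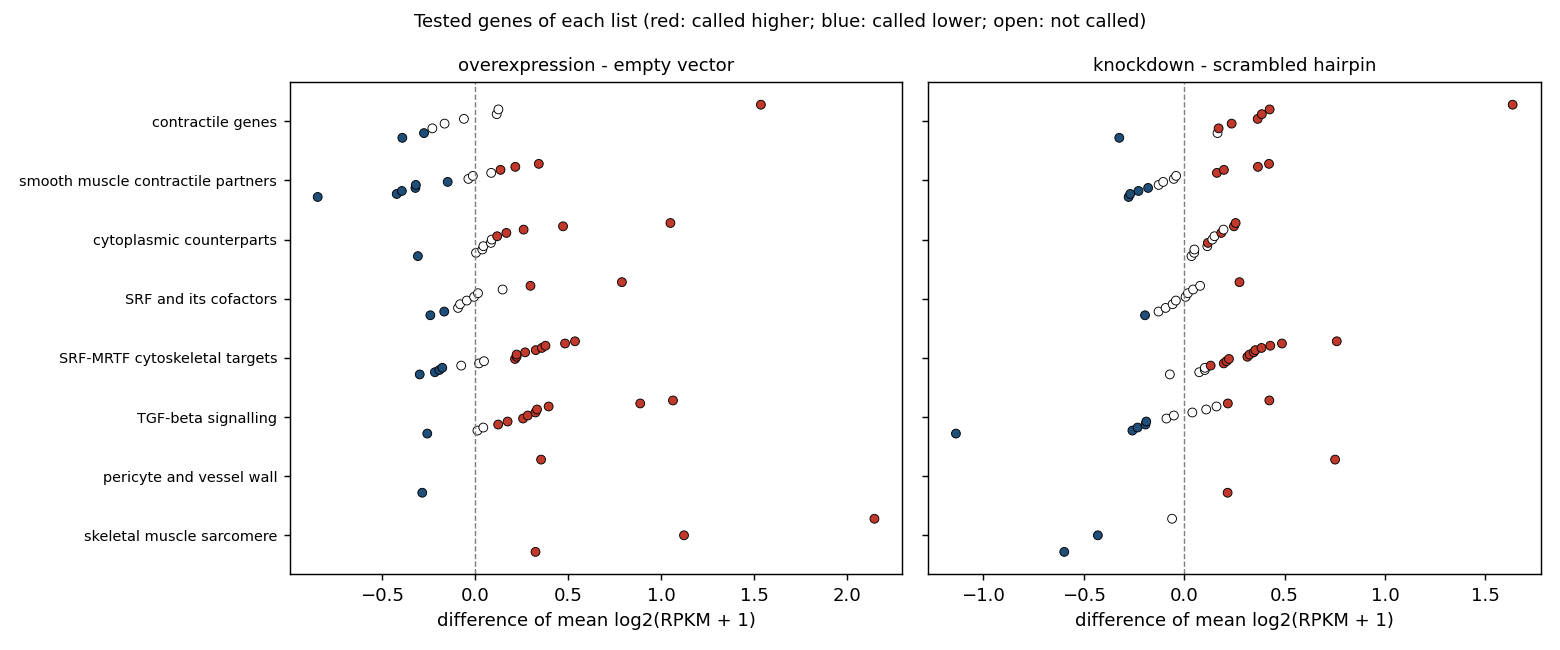
Difference of mean log2(RPKM + 1) for each tested gene of the contractile set and 7 companion lists, for overexpression (left) and knockdown (right), with red for called higher, blue for called lower and open points for not called; the horizontal scales differ. In the knockdown panel 12 of 16 cytoskeletal targets of Srf are called higher and none lower, where 18.7% of all genes tested are called higher. In the overexpression panel the 3 tested sarcomere genes are all called higher, where 31.0% of all genes tested are. Of these 3, Tnnc2 and Mb reached the level for testing only through the overexpression libraries and so had to differ.

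Since Acta1 is the actin of skeletal muscle, sarcomere genes of that tissue were examined beside it. Of 27 listed, 23 were found in the data and 3 were tested, and 19 were under 1 RPKM in every library. Tnnc2, the troponin C of fast muscle fibres, was at 0.264, 0.293 and 0.177 RPKM with the empty vector and 4.98, 5.48 and 3.29 RPKM with overexpression (log2 difference 2.14, adjusted p = 1.34e-08). Mb, which encodes the oxygen store myoglobin, was at 0.689, 0.732 and 0.646 RPKM against 3.00, 3.06 and 2.06 RPKM (1.12, adjusted p = 1.16e-06). In both, overexpression replicate 3 was the lowest of its group and still above every control, but both genes reached the level for testing only through the overexpression libraries and so had to differ. In the knockdown, where Acta1 rose, Mb fell from 0.604 to 0.190 RPKM (-0.43, adjusted p = 0.00327) and Tnnc2, near 0, did not pass (-0.06, adjusted p = 0.693). Tnnc1, the troponin C of slow and heart muscle, rose from 0.583 to 0.983 RPKM with overexpression (0.32, adjusted p = 0.00148) and fell from 2.17 to 1.10 RPKM with knockdown (-0.60, adjusted p = 1.96e-05). The summed level of the listed sarcomere genes was 2.97 to 3.44 RPKM with the empty vector and 9.29 to 13.0 RPKM with overexpression. It was 3.94 to 4.50 RPKM with the scrambled hairpin and 2.71 to 3.09 RPKM with the Foxp1 hairpin. Tnnc2 and Mb, averaging 4.58 and 2.71 RPKM with overexpression, were the largest parts of the sum there. Untested genes of the list moved in both directions with overexpression. Mylpf averaged 0.221 RPKM with the empty vector and 1.38 RPKM with overexpression, and Tnni2 0.0596 and 0.587 RPKM. Actn3 went the other way, from 0.775 to 0.462 RPKM. The muscle regulator Myog was at or below 0.0363 RPKM, and the muscle creatine kinase Ckm was at 0 in 11 of the 12 libraries. None of the 13 heart muscle genes was tested, and the 11 of them in the data were under 1 RPKM in every library.

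Markers of other cells that could carry contractile genes were read in the same way. Of 9 pericyte and vessel wall markers 2 were tested, and the defining pericyte gene Rgs5 stood at or below 0.0116 RPKM. The adhesion molecule Mcam fell with overexpression from 53.4 to 43.7 RPKM (-0.28, adjusted p = 1.15e-04) and rose with knockdown from 22.1 to 37.8 RPKM (0.75, adjusted p = 1.04e-07). Pdgfrb, a growth factor receptor of pericytes and fibroblasts, rose in both (0.35, adjusted p = 1.77e-04, and 0.22, adjusted p = 0.00614). The 7 endothelial markers were all under 1 RPKM, and of 7 macrophage markers 2 were tested. Adipocyte markers moved with the manipulations: 1 of 13 tested rose and 12 fell with overexpression, and 8 rose and 4 fell with knockdown (median log2 differences -0.66 and 0.16), where 20.3% of all genes fell with overexpression and 18.7% rose with knockdown. Their summed level was 11741 to 11930 RPKM with the empty vector, 5311 to 5535 RPKM with overexpression, 8280 to 8521 RPKM with the scrambled hairpin and 11167 to 11857 RPKM with the Foxp1 hairpin. Among 12 tested preadipocyte and fibroblast markers, 7 rose and 3 fell with overexpression, where 31.0% and 20.3% of all genes did. With knockdown 3 of these markers rose and 4 fell, close to the shares over all genes of 18.7% and 31.0%. Their summed levels were 1106 to 1161, 1443 to 1560, 1033 to 1100 and 1022 to 1123 RPKM in the same order of groups. In the knockdown, where Acta2 rose, the summed adipocyte markers were higher and the ranges of the summed fibroblast markers overlapped. The adipocyte sum is weighted to the most abundant markers, and 4 of the 13 tested fell there while 8 rose. Single fibroblast markers also moved in both directions. S100a4 rose from 24.8 to 59.8 RPKM (1.22, adjusted p = 8.83e-05) and the matrix gene Postn from 52.1 to 73.6 RPKM (0.49, adjusted p = 6.51e-06), while the matrix gene Fn1 fell from 61.3 to 43.2 RPKM (-0.50, adjusted p = 8.38e-05). The part of these shifts in the results for the contractile genes was not tested.

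Among 6660 tested genes with a mean of at least 5 RPKM, those whose log2(RPKM + 1) followed each contractile gene most closely over the 12 libraries were named by Pearson's r. Libraries of a group share their treatment, so the points are not independent and the values are a description only. For Acta1 they were Apoa4, Selenop and Dmpk, each with r = 0.996. Apoa4 averaged 16.6 RPKM with the empty vector, 65.3 with overexpression, 1.18 with the scrambled hairpin and 1.23 with the Foxp1 hairpin. Acta2 was followed by Cmtm3, Pros1 and Prss23 (r = 0.990, 0.987 and 0.984), and Cmtm3 averaged 14.3, 14.2, 4.80 and 7.51 RPKM in that order of groups. Tagln was followed by Zfp703, Hsd17b11 and Peg13, Actg2 by Pdp1, Hsd17b11 and Gas6, Myl9 by Igfbp3, Abhd11 and Gas6, and Cnn2 by Cyb561d2, Timp2 and Mmp23, with r from 0.988 to 0.995. Gas6, shared by the Actg2 and Myl9 lists, averaged 425.3 RPKM with the empty vector and 90.8 RPKM with the scrambled hairpin. Tpm2 was followed by Prl2c5, Socs2 and Pycr1 (r = 0.996, 0.995 and 0.995). For Tpm1 the closest were BC031181, Gm9347 and Ptn, with the lower values of 0.928, 0.916 and 0.915.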

How the data were processed

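RNA from 12 libraries of 3T3-L1 adipocytes was sequenced. The deposited values are RPKM made by the authors, stored divided by 1000 as read from the values themselves, and were multiplied by 1000. HISAT2 2.1.0, Subread 1.5.3 with featureCounts, and the build mm10 are named, without settings, per the submitters' processing notes. The deposited table names genes of GRCm38 by Ensembl identifier (release 98), and 28896 of 28948 identifiers matched GENCODE M21, the source of symbols, coordinates and exon lengths.

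The 11245 genes that reached 1 RPKM in 3 or more libraries were fitted with limma 3.58.1 in R 4.3.3 (trended eBayes) on log2(RPKM + 1) in one model of 4 groups, and all p-values were Benjamini-Hochberg adjusted over these genes. No count model was used for the main result. Between 98.7% and 98.9% of values were whole multiples of 1 read (within 0.05 read), and the reads recovered this way served for the read numbers quoted and for limma's voom as an alternative. Intervals are limma's 95% intervals, from the spread between libraries, and limits for 0 reads cover counting error only. The script was tested on simulated data with the same spread beyond read sampling for every gene. That setting does not cover genes as uneven as Acta2 in the knockdown. Alternatives were other pseudocounts, filters, scalings, a replicate block, voom, and dropping every library in turn. A rescaling that ignores mitochondrial reads was chosen after seeing the data.

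The 10 genes and the companion lists were chosen with earlier results of these data known. Genes named besides them were all those listed with Srf, the cytoplasmic actins and Myh11. Added to these were up to 4 per other list with the smallest adjusted p, and the 3 most alike per gene. Markers named for being near 0, Gm48529, S100a4, Des, Csrp1, Mylpf, Tnni2 and Actn3 were chosen after their values were seen. A gene that this rule names is not reported here.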

Additional observations from a re-analysis of the deposited data

How the results depend on the processing

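Of 604 recomputed values of single contractile genes, 576 kept their direction and their side of the threshold, 13 lost the call, 13 gained it and 2 changed sign. The sign changes were of the response difference of Tpm2, which passed the test nowhere, and came to -0.020 under median-ratio scaling and to -0.045 under quantile normalization. The number of contractile genes called in the knockdown ranged from 4 to 8 when 1 hairpin library was left out, and was 4 without Foxp1 hairpin replicate 3. With at least 5 RPKM required, 5 genes were tested, of which 3 passed the response difference and 5 the comparison of controls. With no filter on low values the knockdown calls of Cnn2 (adjusted p = 0.0734) and Myl9 (0.119) and the response difference of Myl9 (0.0613) were lost, as was the knockdown call of Myl9 with quantile normalization (0.0520). Actg2 passed with overexpression under TPM (adjusted p = 0.0453), median-ratio (0.0344) and quantile (0.0205) scaling and without the trend (0.0484), and in the knockdown with voom (0.0275), median-ratio scaling (0.0483), without the trend (0.0461), with a pseudocount of 0.5 (0.0313) or without Foxp1 hairpin replicate 2 (0.0423). Voom called 5863 genes with overexpression and 5764 in the knockdown, against 5775 and 5587. Scaling moved the split of all calls into higher and lower: with overexpression from 3490 and 2285 to 2419 and 2565 under TPM, in the knockdown from 2100 and 3487 to 2626 and 2948 under median-ratio and 2650 and 2925 under quantile scaling, for the response difference from 3888 and 2285 to 3142 and 2909 under median-ratio and 3069 and 2989 under quantile scaling, and for the controls from 5037 and 3033 to 4167 and 3784 and to 4045 and 3893 under the same scalings; under TPM the median over all genes of the controls comparison moved from 0.09 to 0.16. Deviations of same-numbered libraries of different groups correlated between -0.17 and 0.23, and those of other pairs between -0.31 and 0.24. These overlapping ranges do not settle whether the replicate numbers pair the samples. With a replicate block the contractile genes called were 3 with overexpression, 7 in the knockdown, 6 for the response difference and 8 for the controls. Acta2 in the knockdown then had a log2 difference of 1.64. The causes of these changes were not tested. With 3 libraries per group and at most 45 reads per library for Actg2, Tagln and Myl9 in the hairpin groups, changes of those genes rest on few reads.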
